A study of Homo sapiens with 9 samples.

Results

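HMOX1 encodes heme oxygenase 1, the inducible enzyme that breaks down heme. It was followed by its gene symbol through RNA sequencing of Caki-1, a human cell line from a clear cell renal carcinoma. The symbol matched 1 transcript, NM_002133, of the 20909 in the deposited table, and 1 gene of 6819. RefSeq holds 1 transcript for the gene, so this transcript stands for the whole gene. The study asked what TAF1D, a subunit of the factor that recruits RNA polymerase I to ribosomal RNA genes, does in clear cell renal carcinoma. TAF1D was knocked down with short hairpin RNAs. The control group (genotype WT per the labels) and the groups SH1 and SH3 (both labelled TAF1D knockdown) held 3 libraries each. All groups share the same line, and the labels name no further treatment, allele or vector. They leave the names SH1 and SH3 unexplained and do not say whether the libraries of a group came from separate cultures, so every p-value below measures the spread between these samples alone. HMOX1 was picked for study because earlier results of these data had shown it higher in SH3 than in control. Its own values are therefore given as a description, with no test.

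Heme oxygenase splits heme into biliverdin, carbon monoxide and free iron. Biliverdin reductase then turns biliverdin into bilirubin, an antioxidant, and ferritin stores or ferroportin exports the iron. HMOX1 is held low by the repressor BACH1 and induced by the transcription factor NRF2 (gene NFE2L2) when cells meet heme, oxidants or electrophiles. Heat shock factors, AP-1 factors, hypoxia-inducible factors and EGR1 are also known to act on it. In the kidney, its induction in tubule cells is known as a response to heme released by muscle or blood cell damage.

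HMOX1 stood higher in SH1 than in control and higher still in SH3. On the FPKM scale (fragment counts scaled to transcript length and library size), the control libraries held 21.18, 27.44 and 28.65. The SH1 libraries held 43.01, 51.41 and 53.32. The SH3 libraries held 85.95, 91.81 and 87.54. The groups did not overlap. The lowest SH1 library stood 1.50-fold above the highest control library, and the lowest SH3 library 1.61-fold above the highest SH1 library. Each of the 2 knockdown groups was set against the same 3 control libraries, so the differences from control share those values.

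**Figure D1:**
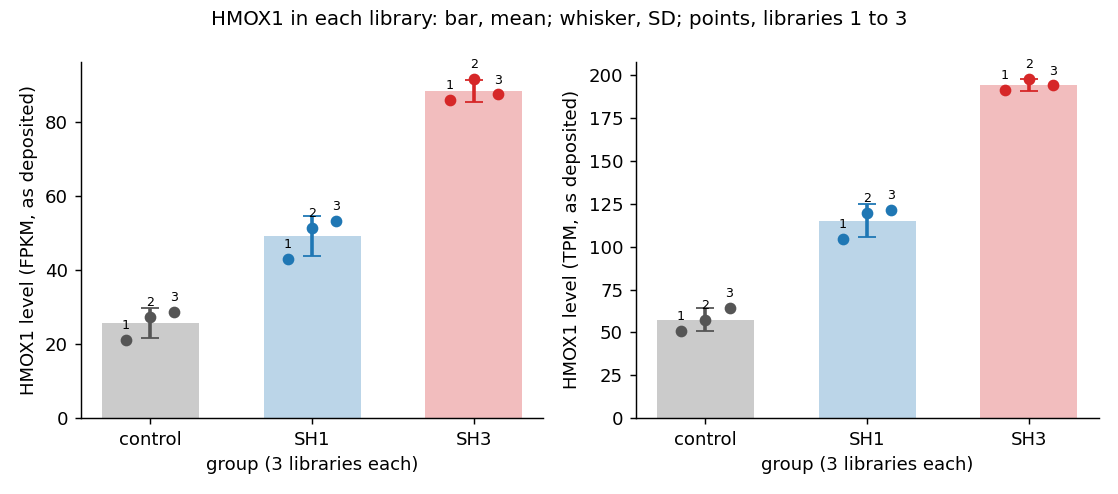
HMOX1 level in each of the 9 libraries, in deposited FPKM (left axis panel) and TPM (right axis panel), by group; bars are means of 3 libraries, whiskers are SD, and points are single libraries with their replicate numbers. In FPKM the control libraries sit between 21.18 and 28.65, the SH1 libraries between 43.01 and 53.32 and the SH3 libraries between 85.95 and 91.81, and the order of the groups is the same in TPM.

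The mean level was 25.8 ± 4.01 FPKM in control, 49.2 ± 5.48 in SH1 and 88.4 ± 3.03 in SH3 (SD, n = 3 libraries each). The ratio of means was 1.91 for SH1 over control, 3.43 for SH3 over control and 1.80 for SH3 over SH1. In each of these comparisons the ratio was above 1 in 9 of 9 pairs of libraries. It ran from 1.50 to 2.52 for SH1 over control, from 3.0 to 4.33 for SH3 over control, and from 1.61 to 2.13 for SH3 over SH1. The high ends of the first 2 ranges come from control 1, the lowest of the control libraries. For scale, the FPKM of the groups compared did not overlap in either direction for 16.1% of the 17495 tested transcripts in SH1 against control, 12.3% in SH3 against control and 14.5% in SH3 against SH1. Since HMOX1 was chosen with its values known, nothing is read from its place among them.

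**Figure D2:**
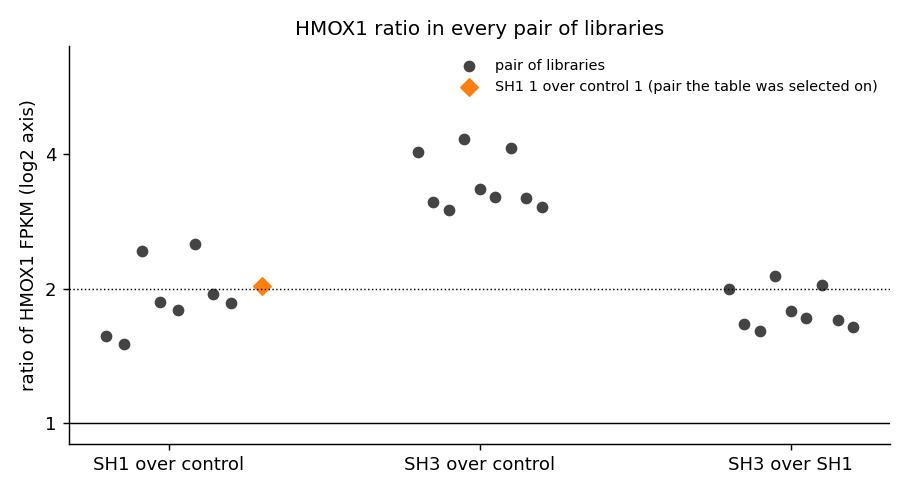
Ratio of HMOX1 FPKM in every pair of libraries (9 pairs per comparison, log2 axis); the solid line marks a ratio of 1, the dotted line a ratio of 2, and the diamond the pair of SH1 1 and control 1. All points lie above 1, between 1.50 and 2.52 for SH1 over control, 3.0 and 4.33 for SH3 over control, and 1.61 and 2.13 for SH3 over SH1.

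The other deposited scales gave the same order of groups. In TPM, which is also scaled to length but adds up to the same total in every library, the control libraries held 50.9, 57.24 and 64.3. SH1 held 104.33, 119.83 and 121.46, and SH3 held 191.16, 197.93 and 193.93. The TPM means were 57.5 ± 6.70, 115 ± 9.45 and 194 ± 3.40 (SD, n = 3), with ratios of 2.0, 3.38 and 1.69 for SH1 over control, SH3 over control and SH3 over SH1. In the authors' normalized read counts the same ratios were 1.82, 3.39 and 1.87. The step from SH1 to SH3 was thus smallest in TPM and the step from control to SH1 smallest in normalized read counts. An FPKM equalled between 0.412 and 0.479 of a TPM, depending on the library, so the 2 scales do not differ by 1 common factor.

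The estimated read counts behind these levels were high enough that counting error was small beside the gaps between groups. HMOX1 held 623, 824.14 and 829.3 estimated counts in the control libraries. It held 1257.99, 1515.65 and 1612.98 in SH1, and 2553.28, 2744.02 and 2643 in SH3. Counting error alone was 4.01% in the shallowest case, control 1, and 1.91% in the deepest, SH3 2. The exact Poisson 95% interval was 575 to 674 counts in control 1 and 1189 to 1329 in SH1 1. These intervals cover counting error only.

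The spread of HMOX1 within groups was smallest in SH3. Its coefficient of variation in FPKM was 15.6% in control, 11.1% in SH1 and 3.43% in SH3. The median over the 197 tested transcripts with a mean of at least 10 FPKM was 32.5%, 26.0% and 16.6%. All listed transcripts differ at least 2.0-fold in estimated count between control 1 and SH1 1, and HMOX1 by only 2.02-fold. That selection bears on the medians of control and SH1, so they are not a neutral measure there. SH3 holds neither of these libraries. A smaller value than that of HMOX1 was found for 37 of the 197 in control, 39 in SH1 and 15 in SH3. In rank by FPKM among all 20909 listed transcripts, HMOX1 stood at 53, 37 and 35 in the control libraries, 19, 17 and 22 in SH1, and 8, 9 and 7 in SH3.

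In the edgeR quasi-likelihood fit across all tested transcripts, the log2 fold change of HMOX1 was 0.83 ± 0.20 (SE) for SH1 against control, which is 1.78-fold. It was 1.74 ± 0.21 for SH3 against control (3.34-fold) and 0.91 ± 0.20 for SH3 against SH1 (1.88-fold). On the log2 scale the 2 steps were of like size in this fit, 0.83 and 0.91, each with an SE of 0.20. DESeq2 gave 0.77 ± 0.43 and 0.89 ± 0.43 (SE) for them. As log2 ratios of means the first step was the larger, 0.94 against 0.84 in FPKM and 1.0 against 0.75 in TPM. The median edgeR log2 fold change over all 17495 tested transcripts was 0.04, 0.03 and 0.0 in the 3 comparisons. Among the 197 transcripts with a mean of at least 10 FPKM, HMOX1 ranked 52 from the highest log2 fold change in SH1 against control, 14 in SH3 against control and 49 in SH3 against SH1. Leaving out any 1 library moved its 3 values within 0.71 to 0.94, 1.63 to 1.83 and 0.81 to 0.99.

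The deposited table is a selection, and HMOX1 entered it only just. A difference of at least 2.0-fold in estimated count between control 1 and SH1 1 is found in all 20909 listed transcripts. In each of the remaining 35 library pairs, 63.1% to 74.9% differ that much. The estimated count of HMOX1 in SH1 1 was 2.02-fold that in control 1. Of the 8571 transcripts with a count in both of these libraries, 98 (1.14%) had a smaller fold, and the median was 3.54. The pair that the table was selected on gave a FPKM ratio of 2.03, inside the range of the other pairs. Without control 1 and SH1 1, the means were 28.0 FPKM in control and 52.4 in SH1, a ratio of 1.87. The edgeR log2 fold changes over the other 7 libraries were 0.80 ± 0.16 for SH1 against control, 1.61 ± 0.15 for SH3 against control and 0.81 ± 0.15 for SH3 against SH1.

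Facts of the whole series bear on how these values can be read. Listed transcripts held 4.20% to 5.18% of all TPM of a library and added up to 1358215 to 1596467 estimated counts, which is not the depth of the library. TAF1D was not analysed here, so the knockdown itself is unchecked. Of 17 markers of renal and clear cell carcinoma cells, 2 were listed. PAX8, a transcription factor of renal epithelium (NM_013952), held 2.26, 3.08 and 1.44 FPKM in control, 6.65, 4.44 and 5.16 in SH1, and 2.88, 9.97 and 3.05 in SH3. The other, MME, had a listed transcript at 0 in 7 of 9 libraries, which did not pass the filter on low counts. Another MME transcript passed it, and MME was not called by edgeR in any comparison. Macrophages also make heme oxygenase 1, and of 8 macrophage markers 1 was listed. CD68 (NM_001251), which tumour lines also express in their lysosomes, held 3.64, 11.38 and 11.17 FPKM in control, 12.03, 12.97 and 15.51 in SH1, and 7.87, 7.91 and 12.36 in SH3. Its SH1 libraries lay just above control and its SH3 libraries overlapped it, and its edgeR adjusted p was 1 in both comparisons. None of 4 endothelial, 5 fibroblast and 5 erythroid markers was listed, and the part of other cell types in the level of HMOX1 was not tested. In bulk RNA, more cells with the transcript and more transcript per cell cannot be told apart.

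Related genes were taken from 9 lists with 182 genes in all: heme breakdown, synthesis and transport, iron handling, regulators of HMOX1, NRF2 targets, other antioxidant genes, heat shock genes and hypoxia targets. Of these, 92 were listed in the table, and 85 passed the filter on low counts with 169 transcripts. All RefSeq transcripts were listed for 5 of the 92 genes, so for the others the table shows part of the gene. All tested transcripts were in the table by differing at least 2.0-fold between control 1 and SH1 1. Each comparison uses 1 or both of these libraries, so the p-values and shares below carry that selection. EGR1 alone passed the threshold (edgeR, adjusted p under 0.05). It rose in SH1 and in SH3 against control, while no related gene passed in SH3 against SH1 or fell in any comparison. Over all tested transcripts, 0.137% passed in SH1 against control (0.0743% higher and 0.0629% lower), 0.0286% in SH3 against control (0.0286% higher and 0.0% lower) and 0.0972% in SH3 against SH1 (0.0629% higher and 0.0343% lower). At an unadjusted p under 0.05 stood 13, 13 and 8 of the 169 related transcripts (7.69%, 7.69% and 4.73%), beside 7.81%, 5.85% and 6.25% of all transcripts. The DESeq2 Wald test called 5, 3 and 4 of the 169 related transcripts, each of a different gene (2.96%, 1.78% and 2.37%), beside 2.8%, 2.06% and 2.25% of all tested transcripts. Apart from EGR1 these calls were of 6 transcripts of 5 genes, each at 0 FPKM in 3 to 6 of 9 libraries. The shares over all tested transcripts given here also stand beside the counts of each list below. The median log2 fold change over the 85 genes, taken by their most abundant tested transcript, was 0.04, 0.41 and 0.24, beside 0.03, 0.08 and 0.05 over all 6351 tested genes. With a count of 0 in every library of a group set to 3 counts over the group, the medians of the 85 genes stayed at 0.04, 0.41 and 0.24. This touched 5, 2 and 5 of the 85 genes, whose fold changes lay far from the median, so the medians could hardly move.

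EGR1, an immediate early transcription factor, was the most abundant of the related genes in FPKM. It held 22.05, 20.35 and 27.82 FPKM in control. It held 92.79, 81.06 and 127.74 in SH1, and 107.92, 93.97 and 128.08 in SH3. Both knockdown groups lay wholly above control and overlapped each other, which differs from the stepped order of HMOX1. The log2 fold change was 2.0 ± 0.20 in SH1 (SE, edgeR adjusted p = 0.00634) and 2.20 ± 0.21 in SH3 (edgeR adjusted p = 0.0117). Between SH3 and SH1 it was 0.20 ± 0.20 (edgeR adjusted p = 1). With fewer libraries the call could be lost while the log2 fold change stayed close. In SH1 the edgeR adjusted p was 0.0503 without control 1 (1.96) and 0.0552 without control 2 (1.93, both log2 fold changes). In SH3 it was 0.103 without control 2 (2.15), 0.0591 without control 3 (2.34) and 0.0537 without SH1 1 (2.21). Over the other 7 libraries, without the pair that the table was selected on, EGR1 was not called. The edgeR adjusted p was then 0.141 in SH1 and 0.139 in SH3, with log2 fold changes of 2.02 and 2.15.

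Of the enzymes of heme breakdown, 3 of 6 were listed and 3 were tested, with 0 called by edgeR or DESeq2 and 0 of 5 transcripts at an unadjusted p under 0.05. HMOX2, the constitutive heme oxygenase, was listed with 4 transcripts and RefSeq holds 13. Its most abundant listed transcript, NM_001127204, held 0.9, 0.7 and 1.21 FPKM in control, 0.23, 0 and 0 in SH1, and 0, 0 and 1.32 in SH3. These levels are far below those of HMOX1, and the fold changes carried large errors, -3.60 ± 2.74 in SH1 and -1.09 ± 2.51 in SH3 (log2, SE, edgeR adjusted p = 1 in both). BLVRA, biliverdin reductase A, held 2.28, 5.09 and 1.22 FPKM in control, 4.9, 2.22 and 2.48 in SH1, and 4.05, 6.19 and 3.92 in SH3 in its 1 listed transcript of 5. Its groups overlapped, with log2 fold changes of 0.04 ± 1.04 and 0.67 ± 1.04 (edgeR adjusted p = 1 in both). PGRMC1, a heme-binding membrane protein, was at 0 in 6 of 9 libraries, all SH1 libraries among them. BLVRB, POR and UGT1A1 were not analysed here.

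Among the genes of heme synthesis 7 of 14 were listed and tested, with 0 called by edgeR or DESeq2 and 1 of 20 transcripts at an unadjusted p under 0.05 in each comparison. FECH, ferrochelatase, which inserts iron into protoporphyrin in the last step of synthesis, stood apart in SH1. Its transcript XM_011525881 held 6.96, 5.93 and 4.97 FPKM in control, 3.4, 3.0 and 3.75 in SH1, and 7.07, 5.94 and 6.6 in SH3. All SH1 libraries lay below all others, while SH3 overlapped control. The log2 fold change was -0.93 ± 0.40 in SH1 (edgeR adjusted p = 0.635) and 0.09 ± 0.40 in SH3 (edgeR adjusted p = 1). When listed transcripts were summed per gene, FECH passed the threshold in SH1 against control, as did 2.14% of all genes tested that way. ALAS1, the rate-limiting first enzyme, which heme represses, ranged from 0 to 5.37 FPKM in control, 0 to 3.38 in SH1 and 1.74 to 7.58 in SH3 in 1 of 2 listed transcripts. ALAD and UROS, further enzymes of the pathway, had overlapping groups as well.

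Heme transport was represented by 4 of 9 genes, none called by edgeR. At an unadjusted p under 0.05 stood 1 of 5 transcripts in SH1 against control, 0 in SH3 against control and 1 in SH3 against SH1. The shares of all tested transcripts were 7.81%, 5.85% and 6.25%. DESeq2 called 1 of the 4 genes, SLC46A1, in SH3 against SH1, beside 2.25% of all tested transcripts. SLC46A1, a folate transporter that also carries heme, held 0.58, 0 and 0 FPKM in control, 0 in all SH1 libraries, and 1.94, 0.83 and 1.37 in SH3. ABCG2, an exporter that also moves porphyrins, held 1.73, 1.37 and 1.41 FPKM in control, 0.25, 0.71 and 0.53 in SH1, and 1.24, 0.76 and 0.99 in SH3 in its transcript NM_004827. Both knockdown groups lay below control, with log2 fold changes of -1.72 ± 0.98 and -0.63 ± 0.96 (edgeR adjusted p = 0.806 and 1). SLC48A1, which moves heme out of lysosomes, and LRP1, a receptor for heme bound to hemopexin, stayed under 2.0 FPKM in every library and overlapped between groups. The heme exporter FLVCR1 was not analysed here.

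Iron handling was covered by 13 of 23 genes, 11 of them tested. None was called by edgeR, with 2, 2 and 1 of 24 transcripts at an unadjusted p under 0.05 in SH1 against control, SH3 against control and SH3 against SH1. The shares of all tested transcripts were 7.81%, 5.85% and 6.25%. DESeq2 called 1, 0 and 1 genes, beside 2.8%, 2.06% and 2.25% of all tested transcripts. SLC25A37, mitoferrin 1, which carries iron into mitochondria, held 2.26, 4.8 and 4.84 FPKM in control, 5.33, 4.24 and 5.26 in SH1, and 4.93, 2.99 and 4.47 in SH3. Its log2 fold changes were close to 0, at 0.21 ± 0.46 and 0.02 ± 0.46 (edgeR adjusted p = 1 in both). SLC11A2, the iron importer DMT1, was listed with 5 transcripts of 37 that did not go 1 way. The most abundant listed one, XM_017019356, held 0.95, 0.94 and 1.36 FPKM in control, 1.95, 1.75 and 1.81 in SH1, and 0.95, 1.27 and 3.14 in SH3. Here SH1 lay above control and SH3 overlapped it, with log2 fold changes of 0.66 ± 0.97 and 0.69 ± 0.98 (edgeR adjusted p = 1 in both). XM_011538405 lay below control in both knockdown groups. It held 0.37, 2.81 and 1.41 FPKM in control, 0, 0 and 0.35 in SH1, and 0 in all SH3 libraries. The groups of the remaining SLC11A2 transcripts overlapped. IREB2, an iron-sensing RNA-binding protein, and SLC25A28, mitoferrin 2, ranged widely within groups. The ferritin genes FTH1 and FTL and the transferrin receptor TFRC were not analysed here, and ferroportin (SLC40A1) did not pass the filter.

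The regulators of HMOX1 were the best covered list, with 23 of 32 genes listed and 22 tested. EGR1, above, was called in both comparisons with control. DESeq2 called 2, 1 and 1 genes in the 3 comparisons, beside 2.8%, 2.06% and 2.25% of all tested transcripts. At an unadjusted p under 0.05 stood 3, 6 and 3 of 43 transcripts (6.98%, 13.95% and 6.98%). The shares of all tested transcripts were 7.81%, 5.85% and 6.25%. The list's median log2 fold change was 0.41 in SH1 and 0.25 in SH3. NFE2L1, which encodes the NRF2 relative NRF1, was highest in SH3 in both of its listed transcripts. NM_003204 held 0.05, 4.24 and 0 FPKM in control, 4.26, 4.63 and 4.78 in SH1, and 7.9, 8.73 and 9.22 in SH3. XM_005257410 held 0.01, 1.18 and 0 in control, 0.93, 2.99 and 2.88 in SH1, and 14.31, 14.46 and 11.43 in SH3. In both transcripts control 2 was the high control library, and the 5.0 ± 1.82 log2 fold change of XM_005257410 in SH3 did not pass (edgeR adjusted p = 0.821). On log2 of FPKM plus 1, limma-trend called NFE2L1 in SH3 against control, beside 0.0857% of all tested transcripts.

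For NFE2L2 itself the listed transcripts were 2 of 8 and gave no common direction. NM_001313903 held 0, 0 and 2.31 FPKM in control, 1.97, 0 and 0 in SH1, and 1.79, 2.64 and 2.09 in SH3, while NM_001313902 held 1.13, 2.3 and 0, then 0, 2.07 and 3.53, then 0 in all SH3 libraries. BACH1, the repressor that heme displaces from HMOX1, was listed with 1 transcript of 3, NM_206866. It held 3.2, 1.45 and 1.16 FPKM in control, 1.28, 1.11 and 1.09 in SH1, and 0.99, 0.97 and 1.08 in SH3. All SH3 libraries lay below all control libraries, by narrow gaps apart from control 1. The log2 fold changes were -0.86 ± 0.72 and -0.99 ± 0.73 (edgeR adjusted p = 1 in both). BACH1 and NFE2L2 fall outside the rule for naming genes and were named after their values were seen. Of the small MAF proteins, which pair with NRF2 and BACH1 on DNA, MAFG ranged from 0.52 to 21.12 FPKM within SH1 alone. MAFK was listed with 2 transcripts that differed most in control 1. NM_002360 held 0 in control 1 and 4.76 to 9.9 in the other libraries. XM_006715773 held 9.64 in control 1 and 2.67 to 6.77 in the others. SP1, a general promoter factor, ranged from 0.18 to 14.57 FPKM in control and from 0 to 1.5 in SH3 in 1 transcript of 3. KEAP1, the adaptor that marks NRF2 for degradation, did not pass the filter.

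Of 38 NRF2 targets 14 were listed and 13 tested, with 0 called by edgeR. At an unadjusted p under 0.05 stood 2, 2 and 0 of 23 transcripts, beside 7.81%, 5.85% and 6.25% of all tested transcripts. DESeq2 called 1 gene in each comparison, ABCC1, beside 2.8%, 2.06% and 2.25% of all tested transcripts. That call was of a transcript higher in SH1 (XM_017023239) and, in both comparisons of SH3, of another that was lower (XM_011522498). The list's median was 0.46 in SH1 and 0.77 in SH3 on the log2 scale. Of the 13 genes, each by its most abundant tested transcript, 8 had a positive log2 fold change in SH1 and 10 in SH3. Over all tested transcripts 51.1% were positive in each, a share per transcript and not per gene, so not like for like. ABCC3, a pump for conjugated bile pigments and drugs, held 3.52, 5.21 and 5.1 FPKM in control, 7.47, 8.67 and 11.58 in SH1, and 7.04, 6.03 and 6.22 in SH3. Both knockdown groups lay above control, with SH1 above SH3, unlike HMOX1. The log2 fold changes were 0.89 ± 0.31 and 0.44 ± 0.31 (edgeR adjusted p = 0.588 and 1). AKR1B1, aldose reductase, held 1.2, 2.56 and 0.46 FPKM in control, 4.18, 4.78 and 5.85 in SH1, and 4.38, 6.68 and 5.11 in SH3 in 1 transcript of 3. It too lay above control in both groups, with 1.68 ± 0.98 and 1.88 ± 0.98 (log2, edgeR adjusted p = 0.832 and 0.834).

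MGST1, a microsomal glutathione transferase, held 1.85, 3.78 and 1.83 FPKM in control, 4.84, 3.52 and 2.79 in SH1, and 8.71, 6.39 and 4.8 in SH3. Its SH3 libraries lay above control and its SH1 libraries overlapped it, with a log2 fold change of 1.36 ± 0.99 in SH3 (edgeR adjusted p = 1). TRIM16L, a paralog of the NRF2 partner TRIM16 that can share reads with it, held 1.99 to 3.83 FPKM in control, 3.14 to 6.36 in SH1 and 3.97 to 5.88 in SH3. NQO1, a quinone reductase often read together with HMOX1 and named here after its values were seen, was listed with 1 transcript of 4, at most 0.83 FPKM in any library. The NRF2 targets GCLC, GCLM, SLC7A11 and SRXN1 were not analysed here.

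Among other antioxidant genes 9 of 25 were listed and 8 tested, with 0 called by edgeR or DESeq2 and 2, 0 and 0 of 10 transcripts at an unadjusted p under 0.05. SOD2, the mitochondrial superoxide dismutase, was the most abundant, in 1 of 2 listed transcripts, NM_001024465. It held 17.81, 38.68 and 25.61 FPKM in control, 44.72, 50.52 and 75.19 in SH1, and 31.12, 28.44 and 36.3 in SH3. SH1 lay above both other groups, and SH3 overlapped control, so the order differed from that of HMOX1. The log2 fold changes were 0.94 ± 0.38 in SH1 and 0.18 ± 0.38 in SH3 (edgeR adjusted p = 0.626 and 1). SOD2 passed in SH1 against control when listed transcripts were summed per gene, as did 2.14% of all genes tested that way. AIFM2 and GPX4, which guard membranes against lipid peroxidation, and GPX1, a glutathione peroxidase, had log2 fold changes between -0.22 and 0.88 with SE of 0.58 to 1.24.

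Heat shock genes were listed for 10 of 15, and 8 were tested, with 0 called by edgeR or DESeq2 and 0, 0 and 1 of 9 transcripts at an unadjusted p under 0.05. BAG3, a co-chaperone, held 1.1, 6.23 and 2.73 FPKM in control, 4.2, 1.38 and 4.69 in SH1, and 5.07, 3.2 and 5.55 in SH3. Its groups overlapped, as did those of the chaperone HSPH1. HSP90AA1, the inducible HSP90, held 1.48, 1.89 and 1.04 FPKM in control, 0.5, 0.84 and 1.21 in SH1, and 1.61, 2.02 and 1.99 in SH3 in 1 transcript of 3. SERPINH1, a collagen chaperone, held 1.8, 0 and 0.96, then 0, 0 and 2.9, then 2.4, 2.24 and 3.65, so its SH3 libraries lay above control.

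Hypoxia targets were listed for 9 of 20 and all 9 were tested, with 0 called by edgeR. At an unadjusted p under 0.05 stood 2, 2 and 1 of 30 transcripts, beside 7.81%, 5.85% and 6.25% of all tested transcripts. DESeq2 called 1, 1 and 0 genes, beside 2.8%, 2.06% and 2.25% of all tested transcripts. HK2, hexokinase 2, was listed with 4 transcripts that did not go 1 way. Its most abundant listed transcript, NM_000189, lay below control in both knockdown groups. NM_000189 held 8.03, 9.37 and 6.98 FPKM in control, 3.2, 4.55 and 6.66 in SH1, and 2.88, 5.21 and 4.24 in SH3. The log2 fold changes were -0.87 ± 0.39 and -1.03 ± 0.40 (edgeR adjusted p = 0.636 and 0.821). The HK2 call of DESeq2 was of another transcript, XM_017003945, which stood higher in both groups. It held 0.01, 0 and 0 FPKM in control, 1.64, 0.64 and 0 in SH1, and 2.73, 0.69 and 2.9 in SH3 (DESeq2 adjusted p = 0.0166 and 0.00164). NDRG1, a stress-responsive gene, was listed with several transcripts. The most abundant listed one held 1.92, 0 and 0 FPKM in control, 6.51, 0.4 and 0.17 in SH1, and 14.73, 10.19 and 10.96 in SH3. Its SH3 libraries lay above all others, with a log2 fold change of 4.17 ± 2.24 (edgeR adjusted p = 0.855). KDM3A, a histone demethylase, had a transcript, XM_024452997, that was also highest in SH3. It held 2.74, 2.6 and 3.25 FPKM in control, 1.32, 3.85 and 2.45 in SH1, and 4.21, 6.64 and 4.85 in SH3. The other listed KDM3A transcript, NM_018433, held 3.23, 1.63 and 2.22, then 1.07, 0.48 and 6.85, then 1.82, 3.08 and 2.44. Its groups overlapped. VEGFA, the vascular growth factor, was listed with 7 transcripts, and its most abundant one, NM_001287044, held 2.45, 3.02 and 3.48 FPKM in control, 0, 0.67 and 0.82 in SH1, and 4.59, 5.59 and 3.87 in SH3.

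**Figure D3:**
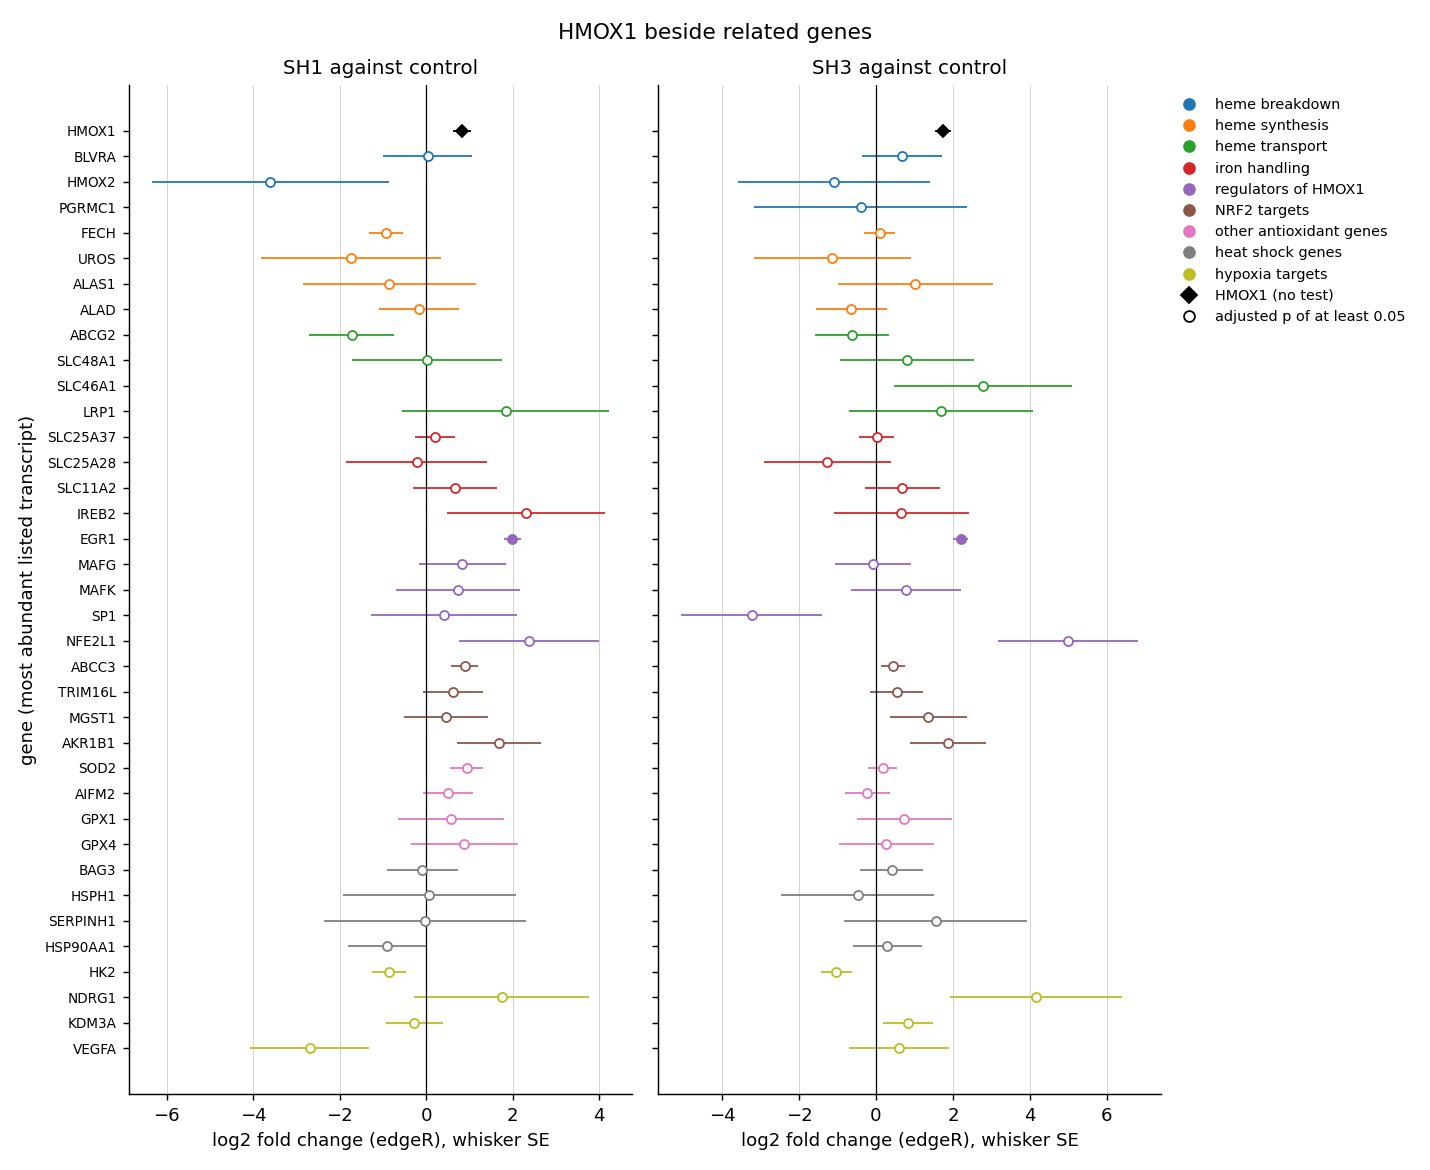
Log2 fold change (edgeR, whiskers SE) against control of HMOX1 and the named related genes, by list, for SH1 (left panel) and SH3 (right panel), each gene by its most abundant listed transcript; filled circles mark an adjusted p under 0.05, and PGRMC1 and SLC46A1 are not drawn for SH1, where all libraries are at 0. EGR1 is the filled gene in both panels (2.0 and 2.20), and most other genes have wider whiskers than HMOX1.

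The most abundant tested transcripts of the 85 related genes were also read for overlap between groups. In SH1 against control, 10 lay wholly above and 8 wholly below control, beside 9.63% and 6.45% of all tested transcripts. In SH3 against control it was 13 and 5, beside 7.26% and 5.08%. In SH3 against SH1 it was 12 and 7, beside 6.68% and 7.84%. These counts take 1 transcript per gene, while the shares take every tested transcript, so they are not like for like. The pathways to which the deposited annotation assigns HMOX1, chosen here after the files were seen, gave 0 called genes in all 3 comparisons by edgeR. At an unadjusted p under 0.05, porphyrin metabolism (13 other genes) had 1, 1 and 1 of 28 tested transcripts, or 3.57% in each comparison, and ferroptosis (22 genes) had 2, 4 and 1 of 44 (4.55%, 9.09% and 2.27%). Mineral absorption (17 genes) had 3, 1 and 3 of 36 (8.33%, 2.78% and 8.33%), and HIF-1 signalling (54 genes) had 9, 10 and 8 of 176 (5.11%, 5.68% and 4.55%). The share over all tested transcripts was 7.81%, 5.85% and 6.25%. DESeq2 called 0 genes of the first 2 pathways in each comparison. It called 2, 0 and 3 of the 16 tested genes of mineral absorption and 3, 2 and 2 of the 52 of HIF-1 signalling. Over all tested transcripts DESeq2 called 2.8%, 2.06% and 2.25%, a share per transcript and not per gene. Nothing is read from these counts.

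The stepped order of HMOX1, all control libraries below all SH1 libraries and these below all SH3 libraries, was looked for in every tested transcript, a rule made after its values were seen. In FPKM it was met by 26 of 17495 transcripts (0.149%), by 18 of the 4935 whose mean reached 1 FPKM (0.365%) and by 3 of the 197 with at least 10 FPKM (1.52%). HMOX1 had the highest mean level of the 18. For comparison, control below SH3 below SH1 was met by 71 transcripts, and the fully reversed order, SH3 below SH1 below control, by 11. SH1 below control below SH3 was met by 32, SH1 below SH3 below control by 35, and SH3 below control below SH1 by 33. The selection of the table on control 1 and SH1 1 bears on all these counts. The other 2 with at least 10 FPKM were CD163L1, a scavenger receptor family member (NM_174941), and a copy of MRPS18B, a mitochondrial ribosomal protein. CD163L1 held 5.17, 8.9 and 8.3 FPKM in control, 11.59, 13.38 and 13.09 in SH1, and 15.64, 19.27 and 16.44 in SH3. Its steps were smaller than those of HMOX1, 0.66 ± 0.27 and 0.50 ± 0.27 on the log2 scale (edgeR adjusted p = 0.626 for SH1 against control and 0.853 for SH3 against SH1). The MRPS18B copy held 3.9, 0 and 0, then 19.03, 12.44 and 5.96, then 21.13, 19.69 and 27.31, and reads shared among its copies make it uncertain. The other genes of the 18 were the growth factor EREG, the receptor MET, the calcium exchanger SLC8B1, LXN, NFE2L1, ARHGAP23, SYNCRIP, WSB1, ALDH3A2, BTG3, DOCK1, UPP1, LYRM1 and VEGFA, the last with 2 transcripts of identical values. The SYNCRIP and WSB1 transcripts, at 0 in all controls, passed the edgeR threshold against control in SH1 (adjusted p = 0.00282 and 0.0216) and in SH3 (0.00672 and 0.0499). These are values the stepped rule itself used.

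**Figure D4:**
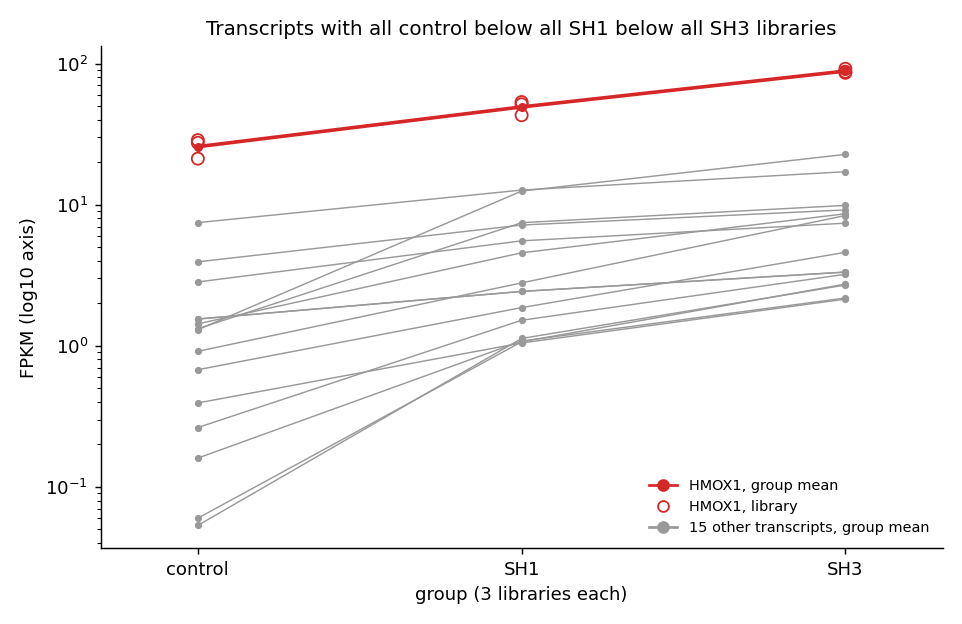
Group means in FPKM (log10 axis) of transcripts with a mean of at least 1 FPKM whose libraries follow control below SH1 below SH3 without overlap; HMOX1 in red with its single libraries as open circles, 15 others in grey, and 2 with 0 in all controls not drawn. HMOX1 lies above the others at each group, from 25.8 to 49.2 to 88.4.

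Likeness to HMOX1 was measured as Pearson's r of log2 CPM over the 9 libraries, for 4934 other transcripts with a mean of at least 1 FPKM. The 9 points share groups and libraries, so r is a description, and it mostly follows the group means. With the group means removed, r of the 10 most alike ran from -0.17 (MET) and 0.05 (SEL1L3) to 0.897 (CD163L1). The median r was 0.09, and 13 transcripts exceeded 0.9. The most alike was LXN, latexin, a carboxypeptidase inhibitor (r = 0.969). LXN held 3.36, 4.08 and 4.36 FPKM in control, 7.27, 7.42 and 6.82 in SH1, and 9.57, 9.31 and 8.65 in SH3. It shared the order of groups with HMOX1 at a lower level and with a smaller span. UPP1, uridine phosphorylase (0.958), CD163L1 (0.958), VEGFA transcript NM_001171628 (0.948) and MET (0.943) followed. The next were the cell cycle inhibitor CDKN1A (0.927), the mitochondrial deacylase SIRT5 (0.924), SEL1L3 (0.914), the mitochondrial channel VDAC1 (0.91) and SLC8B1 (0.908).

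CDKN1A, transcribed in response to p53 among other signals, held 5.57, 5.89 and 5.48 FPKM in control, 12.82, 13.06 and 15.6 in SH1, and 15.5, 16.69 and 17.45 in SH3. Most of its span lay between control and SH1, and SH1 and SH3 overlapped slightly. MET (NM_001324402) held 0.56, 0.84 and 0.63 FPKM in control, 2.53, 1.66 and 1.4 in SH1, and 3.93, 4.15 and 5.7 in SH3, a wider span than that of HMOX1. The lowest edgeR adjusted p of these 10 against control was 0.375 (MET in SH3). VEGFA shows how far transcripts of 1 gene can part. NM_001171628 held 1.18 to 1.8 FPKM in control, 2.14 to 2.59 in SH1 and 2.99 to 3.56 in SH3, whereas NM_001287044, above, was lowest in SH1.

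The transcripts most opposite to HMOX1 were of GEMIN2, a factor in assembly of spliceosomal particles (r = -0.956), SYNCRIP, an RNA-binding protein (-0.918), CPA4, a carboxypeptidase (-0.902), EWSR1, an RNA-binding protein (-0.881), and CHID1 (-0.847). CPA4 (NM_016352) held 15.82, 17.06 and 16.21 FPKM in control, 2.31, 2.15 and 1.86 in SH1, and 0.5, 1.37 and 1.56 in SH3. Most of its difference lay between control and SH1, with log2 fold changes of -3.06 ± 0.55 and -3.87 ± 0.57 against control (edgeR adjusted p = 0.117 and 0.0823). The SYNCRIP transcript XM_017010176 held 10.55, 6.68 and 9.25, then 3.46, 3.08 and 5.55, then 0.04, 0 and 0.04 FPKM. Another SYNCRIP transcript, XM_017010177, ran the other way and met the stepped order, from 0 in all controls to 4.82, 5.67 and 2.43 in SH1 and 6.48, 6.01 and 5.95 in SH3.

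Of the 5 genes on each side of HMOX1 in the RefSeq table, 2 were listed, TOM1 and HMGXB4, each with 1 transcript. TOM1, an endosomal sorting gene, held 0 in all control libraries, 0.55, 0.37 and 0 FPKM in SH1, and 0.67, 0 and 0 in SH3. HMGXB4 held 0.23, 0.16 and 0.11 in control, 0, 0.09 and 0.1 in SH1, and 0, 0 and 0.18 in SH3. Both stayed under 1 FPKM in every library, and neither followed the steps of HMOX1. Among the neighbours, MCM5, RASD2 and MB were not analysed here.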

How the data were processed

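The members and lists were chosen with earlier results of these data known. The table was deposited per transcript with 4 values per library, per the file headers. Deposited FPKM and TPM describe levels. The deposited estimated count (65.1% of values not whole) was rounded for the tests. The deposited normalized read count, a signal, equals the count rounded up over 1 factor per library (relative tolerance 1e-06). Aligner and counter are not given in the sources used here. The submitters' processing notes name the mouse build mm10, while 20900 transcripts carry human gene numbers (RefSeq, GRCh38.p14), so no coordinates are given; 85 symbols were updated. Columns left unassigned numbered 0.

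edgeR 4.0.16 (R 4.3.3) was fitted to all 9 libraries with TMM, filterByExpr (minimum count 10, 17495 transcripts kept) and a robust quasi-likelihood test, adjusted by Benjamini-Hochberg over all transcripts, threshold 0.05. The SE is the size of the log2 fold change over the square root of F. Scripts were tested on simulated data. Named genes are HMOX1, called list members, up to 4 further members per list by highest mean FPKM, the 10 most and 5 least alike transcripts and listed neighbours. Alternatives used DESeq2 1.42.0, limma 3.58.1, other filters and scalings, left-out libraries and sums per gene.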

Additional observations from a re-analysis of the deposited data

How the results depend on the processing

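HMOX1 stayed positive under all 20 alternatives in each comparison, within 0.71 to 0.94 (SH1 against control), 1.61 to 1.83 (SH3 against control) and 0.81 to 0.99 (SH3 against SH1) on the log2 scale. Counts of called related genes moved more, from 1, 1 and 0. DESeq2 called 5, 3 and 4. A fit of only the groups compared called 0 in SH1 and 0 in SH3 against control, and so did the other 7 libraries (0 and 0). Sums per gene called 3 in SH1, and limma-trend on FPKM plus 1 called 2 in SH3. Leaving out 1 library gave 0 to 1 in SH1 and in SH3 against control; 0 followed from leaving out control 1 or 2 in SH1, and control 2, control 3 or SH1 1 in SH3. Calls over all transcripts, 24, 5 and 17, ranged over 3 to 489, 0 to 360 and 2 to 394, the highest with DESeq2. The cause was not tested.

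Deviations of same-numbered libraries from their group means correlated by -0.28 to 0.03, and 2 of 9 libraries correlated best with their own number. The -0.28 is control 1 with SH1 1, the pair that the table was selected on. That selection also bears on other correlations of control with SH1, so these cannot settle whether the numbers pair libraries. Same-numbered pairs with an SH3 library ran from -0.004 to 0.03. With the number as a replicate block, HMOX1 had log2 fold changes of 0.83, 1.75 and 0.92. In that fit 1, 1 and 0 related genes were called, and 16, 2 and 5 transcripts in all. The selection of the table limits what can be said of genes outside it, and no list result speaks for the unlisted transcripts of its genes.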
